A study of Mus musculus with 8 samples.

Results

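The genes described here encode the subunits of the oxidative phosphorylation machinery in mouse liver, here compared between WT and N-LKO animals on chow diet (CD). Members were taken by symbol: names that begin with mt-Nd, mt-Co, mt-Cytb or mt-Atp, or with Nduf followed by a, b, c, s or v and a number, Sdha to Sdhd, Uqcr, Cox4 to Cox8, or Atp5. This rule found 107 of the 19642 genes in the count table, namely 13 genes of the mitochondrial genome, 80 genes of the nuclear genome and 14 rows that the GENCODE M21 or RefSeq annotation calls pseudogenes. Complex I had 7 mitochondrially encoded and 38 nuclear-encoded members. Complex II had 4 nuclear-encoded members, complex III 1 and 8, complex IV 3 and 13, and complex V, the ATP synthase, 2 and 17.

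N-LKO mice lack NgBR in the liver. Their Nus1 gene, which encodes NgBR, has loxP sites on both alleles and is deleted by Cre under the albumin promoter, which is active in hepatocytes, so the other cells of the liver keep the gene. NgBR is a subunit of cis-prenyltransferase, the enzyme that makes the dolichol needed for protein glycosylation. All mice were in the C57BL6 background, and whether the WT mice carried Cre or loxP alleles is not given in the sources used here. After rRNA was removed, total liver RNA from 4 mice of each genotype was sequenced, 1 library per mouse. Both groups were fed CD, for 8 weeks by the sample titles and for 16 weeks by the treatment entries. Total counts per mouse ranged from 14688404 to 18585412. Values are normalised read counts (CPM, counts scaled to a common library size) after TMM scaling of the libraries. The comparison addresses whether loss of NgBR on CD goes with a change in the mRNAs of the respiratory chain.

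Oxidative phosphorylation couples the oxidation of nutrients to ATP synthesis. Complexes I and II pass electrons from NADH and succinate to coenzyme Q, complex III passes them on to cytochrome c, and complex IV hands them to oxygen. Complexes I, III and IV pump protons across the inner mitochondrial membrane, and complex V uses the gradient to make ATP. Complexes I, III, IV and V are built from proteins of both genomes, whereas complex II is encoded in the nucleus alone. The hepatocyte is rich in mitochondria, which also carry out fatty acid oxidation and part of the urea cycle.

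As a check of the genotype, Nus1 was at 82.0, 90.4, 90.5 and 89.7 CPM in the WT livers and at 33.3, 36.2, 38.7 and 38.7 CPM in the N-LKO livers. The genotypes did not overlap (exact two-sided permutation test, p = 0.0286, the smallest p that 4 against 4 allows). Nus1 fell by 1.26 on the log2 scale (standard error 0.0748; edgeR, adjusted p = 3.06e-05).

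The oxidative phosphorylation genes did not pass the test in either direction. Of the 107 members, 104 passed the filter on low counts, and edgeR called 0 of them at an adjusted p under 0.05, against 1.04% of the 14214 genes tested (148 genes). Over all genes, 0.823% were called higher and 0.218% lower in N-LKO livers. DESeq2 and limma-voom also called 0 members, against 2.61% and 0.886% of all genes. At such shares few calls would come from 104 genes. Without adjustment, 0 members had p under 0.05 in edgeR, DESeq2 and limma-voom, and in edgeR this share was 12.8% over all genes. The genotypes overlapped in each of the 104 members, whereas 7.52% of all genes had no overlap between them. The smallest adjusted p of a member from edgeR was 0.452, for Atp5h.

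The fitted differences were small and their intervals narrow. The log2 fold change (N-LKO over WT) lay within 0.2 of 0 in 100 of 104 members (96.2%), compared with 65.9% of all genes tested. The 95% confidence interval lay inside a 1.5-fold change in both directions for 98 members (94.2%), compared with 62.1% of all genes. It lay inside that range for all 13 mitochondrially encoded genes and for 75 of 78 tested nuclear-encoded genes. The 6 members with wider intervals were Ndufa11, Cox6b2, Atp5g2 and the pseudogene rows Atp5c1-ps, Atp5l-ps1 and Atp5l2-ps. All of these but Ndufa11 had a mean under 2 CPM. Members moved together from mouse to mouse, so that these counts are not over independent genes. Members were not matched in level to all genes tested, and the part of level in the contrasts with all genes was not tested.

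**Figure D1:**
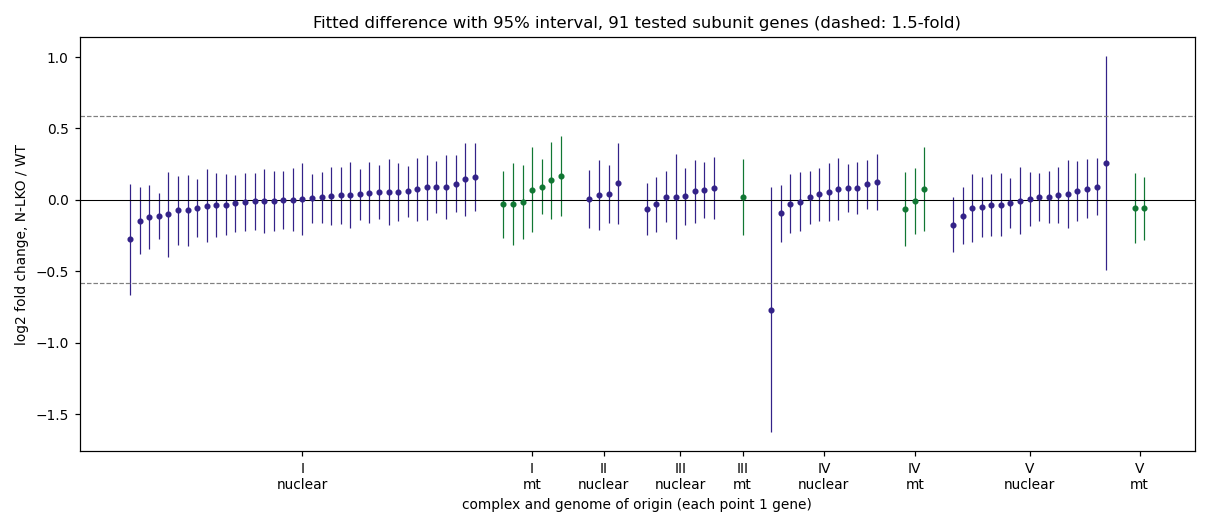
Log2 fold change (N-LKO over WT, vertical axis) with its 95% confidence interval for the 91 tested members that are not pseudogene rows, by complex and genome of origin along the horizontal axis; blue points are nuclear-encoded and green points mitochondrially encoded. The dashed lines mark a 1.5-fold change, and the intervals of Ndufa11, Cox6b2 and Atp5g2 cross them.

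By genome of origin, the median log2 fold change was -0.0075 over the 13 mitochondrially encoded genes (range -0.065 to 0.17) and 0.020 over the 78 nuclear-encoded genes (range -0.77 to 0.26). The median of all genes tested was -0.0033. Of the nuclear-encoded genes 48 were above 0 and 30 below. The nuclear-encoded medians by complex were 0.0081 for complex I, 0.038 for complex II, 0.024 for complex III, 0.047 for complex IV and 0.0069 for complex V.

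The mitochondrially encoded genes were expressed far above the nuclear-encoded ones. They took 13.8% ± 0.316 (SD, n = 4) of all counts in WT livers and 13.8% ± 0.939 (SD, n = 4) in N-LKO livers. By mouse the share was 13.6%, 13.5%, 14.1% and 14.1% in WT and 14.6%, 14.4%, 13.6% and 12.6% in N-LKO livers. The N-LKO mice held both the highest and the lowest share. The 80 nuclear-encoded genes together took 0.660% ± 0.0441 in the WT group and 0.657% ± 0.0411 in the N-LKO group (mean ± SD, n = 4 each). The count ratio of mitochondrially to nuclear-encoded members, which does not depend on library scaling, came to 21.002 ± 1.34 in the WT group and 21.05 ± 2.01 in the N-LKO group (mean ± SD, n = 4 each). Per kilobase of transcript, the median level was 11504 CPM over the 13 mitochondrially encoded genes and 58.3 CPM over the 80 nuclear-encoded genes.

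**Figure D2:**
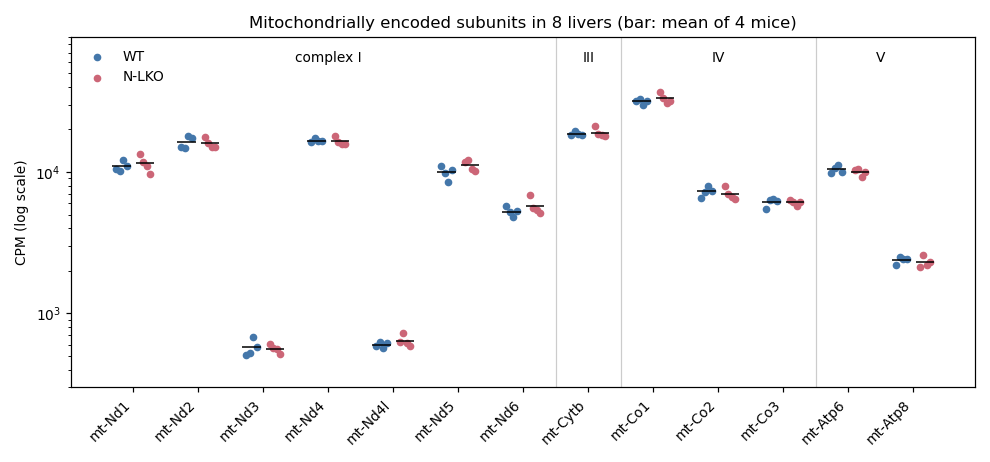
CPM on a log scale (vertical axis) of the 13 mitochondrially encoded genes in each of the 8 livers; blue points are WT mice, red points N-LKO mice and bars the means of 4 mice. The genotypes overlap in each gene, and mt-Co1 is highest at 29843 to 37119 CPM.

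Among the complex I genes of the mitochondrial genome, which encode proton-pumping membrane subunits, mt-Nd5 had the highest fold change. It was at 10960.0, 9812, 8528 and 10403 CPM in WT livers and at 11727, 12119, 10527 and 10172 CPM in N-LKO livers. N-LKO replicates 1 and 2 were above each WT mouse, and the other two N-LKO mice were among the WT values. Its log2 fold change of 0.17 (95% interval -0.11 to 0.44) did not pass the test (adjusted p = 0.642 from edgeR; exact permutation test, p = 0.171). mt-Nd6, the single protein gene on the light strand of the mitochondrial genome, lies at 13552 to 14070 on the minus strand and overlaps the end of mt-Nd5 on the plus strand. Its level was 5703, 5179, 4782 and 5275 CPM in WT livers and 6900.2, 5578, 5397 and 5163 CPM in N-LKO livers. Only N-LKO replicate 1 was above the WT mice, and the log2 fold change was 0.14 (95% interval -0.13 to 0.41). No source says that strand was used in counting, so reads of mt-Nd6 and of transcripts from the opposite strand cannot be told apart.

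The other complex I genes of this genome had log2 fold changes of 0.093 for mt-Nd4l, 0.072 for mt-Nd1, -0.013 for mt-Nd4, -0.029 for mt-Nd2 and -0.032 for mt-Nd3. mt-Cytb, the cytochrome b of complex III, was at 18717 ± 679 CPM in the WT group and 19001 ± 1404 CPM in the N-LKO group (mean ± SD, n = 4 each). N-LKO replicate 1 was highest at 21088 CPM, and the remaining N-LKO mice were between 18052 and 18509.9 CPM. The log2 fold change of mt-Cytb was 0.022 (95% interval -0.25 to 0.29).

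Complex IV, cytochrome c oxidase, takes its catalytic core from the mitochondrial genome. mt-Co1, which binds the oxygen-reducing centre, was at 31731, 32629, 29843 and 32080.2 CPM in WT livers and at 37119, 33315, 30900.2 and 31711 CPM in N-LKO livers. Both N-LKO replicates 1 and 2 were above the WT mice and the groups overlapped, with a log2 fold change of 0.075 (95% interval -0.22 to 0.37). mt-Co2, which receives electrons from cytochrome c, was at 7301 ± 571 CPM in the WT group and 6980 ± 687 CPM in the N-LKO group (mean ± SD, n = 4 each), for a log2 fold change of -0.065 (95% interval -0.32 to 0.19). mt-Co3 had a log2 fold change of -0.0075. The membrane subunits of the ATP synthase, mt-Atp6 and mt-Atp8, had log2 fold changes of -0.060 (95% interval -0.30 to 0.19) and -0.059 (95% interval -0.28 to 0.16).

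For at least 7 of the 13 mitochondrially encoded genes the counts stood in more than 1 row. A copy of mitochondrial DNA in the nuclear genome lies on chromosome 1 (GRCm38, 24611535 to 24616197, minus strand), and the annotation names its pieces as genes of their own. mt-Atp6, mt-Co2, mt-Co3 and mt-Nd4l were identical to their copies over each aligned base, and so was mt-Nd4 over its first 876 bases. mt-Nd3 differed from its copy Gm28438 at 1 of 345 aligned bases, T3C, and mt-Co1 differed from Gm29216 at 6 of 492. In such a substitution the base of the gene comes first, then the position counted from the start of the gene, then the base of the copy. The stretches below hold these mismatches in capitals, and the remaining bases are identical. They are shown because a 75-base read within the aligned part that misses the capitals cannot be placed in the gene or in its copy.

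mt-Nd3 (chrM:9459-9519, plus strand): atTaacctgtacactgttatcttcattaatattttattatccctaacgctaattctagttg
Gm28438 (chromosome 1 copy): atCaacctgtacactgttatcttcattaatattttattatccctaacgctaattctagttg
mt-Co1 (chrM:6381-6441, plus strand): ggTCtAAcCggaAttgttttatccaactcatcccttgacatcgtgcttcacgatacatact
Gm29216 (chromosome 1 copy): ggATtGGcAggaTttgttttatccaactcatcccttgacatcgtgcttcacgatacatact

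The deposited counts of mt-Co2 and its copy Gm28661 were almost equal. The copy held between 49.8% and 49.9% of their sum in each of the 8 mice. For mt-Nd4l, mt-Nd3, mt-Atp6 and mt-Co3 the copy held 52.0%, 49.9%, 45.6% and 44.5% of the sum on average in WT livers and 50.4%, 51.5%, 47.2% and 46.8% in N-LKO livers. The shares were lower for mt-Nd4 (5.11% in WT livers) and mt-Co1 (3.06%). Their copies cover only a piece of each gene. Of the stretches of read length in mt-Nd4, 61.5% occur in its copy, and for mt-Co1 27.5% do. Whether this coverage accounts for the low shares was not tested. The level of all 7 genes is understated in the table by up to the part that stands in the copy rows. With the copy added, the mitochondrially encoded share of counts was 16.2% ± 0.426 in the WT group and 16.2% ± 1.09 in the N-LKO group (mean ± SD, n = 4 each). After the copies were summed the log2 fold changes of the 7 genes ranged from -0.065 for mt-Co2 to 0.067 for mt-Co1, and 0 of them passed the edgeR test.

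Pseudogene rows of nuclear-encoded genes also held counts, and whether reads of a gene were counted in such a row was not tested. Every 75-base window of Ndufb4c occurs in Ndufb4, which encodes an accessory subunit of complex I. GENCODE M21 calls Ndufb4c a pseudogene, whereas RefSeq calls it protein-coding. In WT livers Ndufb4c was at 24.8 ± 2.52 CPM, above Ndufb4 itself at 7.16 ± 0.460 CPM (mean ± SD, n = 4). Likewise, the WT mean of Ndufa12-ps was 29.9 ± 0.894 CPM and that of Ndufa12 16.8 ± 1.66 CPM (SD, n = 4), and 69.5% of the windows of Ndufa12-ps occur in Ndufa12. Levels of such genes and rows are uncertain. With the rows summed, Ndufb4 had a log2 fold change of -0.12 (95% interval -0.31 to 0.068) and Ndufa12 one of -0.082 (95% interval -0.24 to 0.078). The 13 tested pseudogene rows had a median log2 fold change of -0.0085 (range -0.19 to 0.35).

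**Figure D3:**
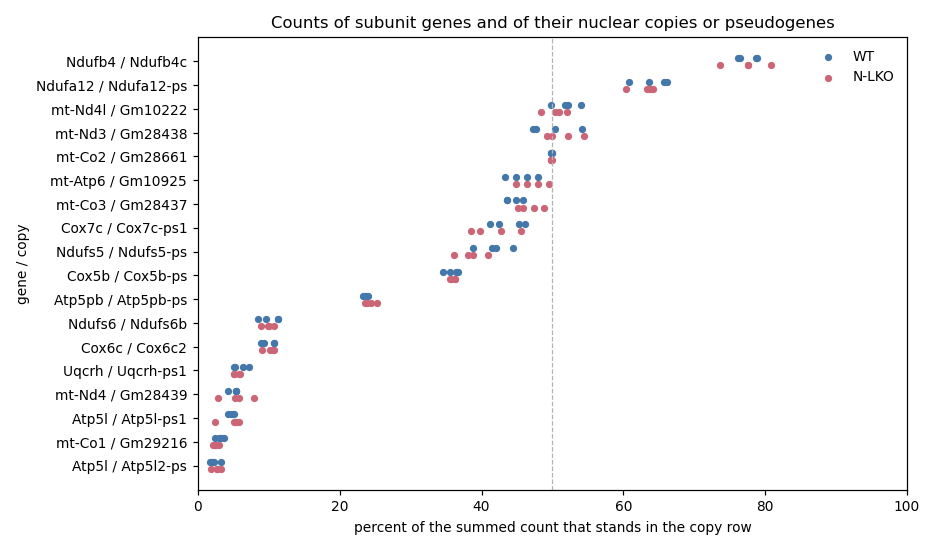
Percent of the summed count of a gene and its copy that stands in the copy's row (horizontal axis) for 18 gene and copy pairs; each point is 1 mouse, blue WT and red N-LKO. Gm28661, the copy of mt-Co2, sits at 49.8% to 49.9% in each mouse, and Ndufb4c holds 73.7% to 80.8% of its sum with Ndufb4.

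Among the nuclear-encoded complex I genes the highest fold change at 1 CPM or more was that of Ndufb6, an accessory subunit of the membrane arm. Ndufb6 (chromosome 4, 40270591 to 40279421, minus strand) was at 18.9, 21.7, 25.5 and 23.6 CPM in WT livers and at 25.4, 22.1, 25.1 and 27.6 CPM in N-LKO livers. WT replicate 1 was the lowest mouse, and the groups overlapped. Its log2 fold change was 0.16 (95% interval -0.074 to 0.40, adjusted p = 0.581 from edgeR), and the locus overlaps Smim27. The lowest was Ndufa11 (chromosome 17, 56717767 to 56722141, plus strand), another membrane-arm subunit. It was at 10.3, 14.5, 11.8 and 9.49 CPM in WT livers and at 10.7, 6.60, 10.7 and 9.91 CPM in N-LKO livers. N-LKO replicate 2 was the lowest and WT replicate 2 the highest mouse, with a log2 fold change of -0.28 (95% interval -0.66 to 0.11, adjusted p = 0.560 from edgeR). Of the fits with 1 mouse left out, those without N-LKO replicate 2 (-0.13) and without WT replicate 2 (-0.15) gave Ndufa11 the smallest differences.

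In complex II, succinate dehydrogenase, which also serves the TCA cycle, Sdhb and Sdhc were the extremes. Sdhb, the iron-sulfur subunit (chromosome 4, 140961203 to 140979193, plus strand), was at 71.0, 96.7, 76.4 and 70.7 CPM in WT livers and at 99.3, 69.2, 87.8 and 84.5 CPM in N-LKO livers. The highest and the lowest mouse were both N-LKO, and the log2 fold change was 0.12 (95% interval -0.17 to 0.40). Sdhc, a membrane anchor of the complex, was at 82.9 ± 7.80 CPM in the WT group and 83.1 ± 7.62 CPM in the N-LKO group (mean ± SD, n = 4 each), for a log2 fold change of 0.0043 (95% interval -0.20 to 0.21). All 4 genes of complex II were above 0, by at most the 0.12 of Sdhb.

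In complex III the range was from Uqcrh to Uqcrc1. Uqcrc1, a core protein (chromosome 9, 108936633 to 108949623, plus strand), was at 86.7, 98.3, 92.4 and 99.9 CPM in WT livers and at 112, 82.3, 103 and 103 CPM in N-LKO livers. Here 3 N-LKO mice lay above the WT mice and N-LKO replicate 2 below them, with a log2 fold change of 0.084 (95% interval -0.13 to 0.30). Uqcrh, the hinge protein that assists the contact with cytochrome c, was at 112 ± 10.3 CPM in the WT group and 107 ± 6.36 CPM in the N-LKO group (mean ± SD, n = 4 each), for a log2 fold change of -0.063 (95% interval -0.25 to 0.12).

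The nuclear-encoded subunits of complex IV surround its catalytic core. Cox7c (chromosome 13, 86044816 to 86046904, minus strand) was at 30.5, 37.3, 34.2 and 31.7 CPM in WT livers and at 38.7, 33.7, 38.8 and 34.4 CPM in N-LKO livers. N-LKO replicates 1 and 3 were above each WT mouse, and the log2 fold change was 0.12 (95% interval -0.071 to 0.32). With the row of Cox7c-ps1 added it was 0.067. A further row, Gm12338, was not added, though 9.8% of the stretches of read length in Cox7c occur in it. Cox6b1 was at 124 ± 11.6 CPM in the WT group and 117 ± 10.5 CPM in the N-LKO group (mean ± SD, n = 4 each), for a log2 fold change of -0.095 (95% interval -0.29 to 0.11). Cox6b2, the testis form of that subunit, was at 0.826 ± 0.280 CPM in the WT group and 0.479 ± 0.203 CPM in the N-LKO group (mean ± SD, n = 4 each). It is named because it had the lowest log2 fold change of any member, -0.77 (95% interval -1.63 to 0.093, adjusted p = 0.456 from edgeR), at a level too low for a narrow interval.

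In complex V, Atp5b encodes the catalytic beta subunit and Atp5h a subunit of the peripheral stalk. Atp5b (chromosome 10, 128083273 to 128090391, plus strand) was at 605, 718, 652 and 651 CPM in WT livers and at 738, 617, 733 and 712 CPM in N-LKO livers. WT replicate 1 and N-LKO replicate 2 were the lowest mice of their groups, and the log2 fold change was 0.092 (95% interval -0.11 to 0.29). Atp5h (chromosome 11, 115415689 to 115419962, minus strand) was at 50.6, 64.2, 58.2 and 52.2 CPM in WT livers and at 50.1, 46.7, 50.8 and 52.2 CPM in N-LKO livers. WT replicates 2 and 3 were above the N-LKO mice and the other two WT mice were among them. The log2 fold change of Atp5h was -0.17 (95% interval -0.36 to 0.019, adjusted p = 0.452 from edgeR; exact permutation test, p = 0.143). It kept an adjusted p of 0.311 or more in edgeR with any mouse left out, and leaving out WT replicate 2 gave a log2 fold change of -0.10. Of the stretches of read length in Atp5h, 14.6% occur in Gm10250, whose counts were not added.

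The nuclear-encoded members varied together from mouse to mouse. Their median SD of log2 CPM within a genotype was 0.13 in WT and 0.14 in N-LKO livers. Over all genes tested, which were not matched to them in level, it was 0.18 and 0.19. Of the 78 tested nuclear-encoded genes, 71 were lowest of all 8 mice in WT replicate 1 (34 genes) or N-LKO replicate 2 (37 genes), which is 91.03%, against 25.1% of all genes tested. N-LKO replicate 1 was highest in 37 genes and WT replicate 2 in 21, together 74.4% against 26.0% of all genes. The deviation of a mouse was taken as its log2 CPM minus the mean over the 8 mice. Over the 78 genes the median deviation was -0.15, 0.099, 0.058 and -0.0049 in the WT mice and 0.13, -0.15, 0.041 and 0.032 in the N-LKO mice, in the order of replicates 1 to 4. Over all genes tested the same median was between -0.00077 and 0.012 in each mouse. These mice were singled out after their values were seen, so that the counts are descriptions.

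The low level in WT replicate 1 and N-LKO replicate 2 was seen in each of the 5 complexes. In WT replicate 1 the median deviation was between -0.21 (complex II) and -0.13 (complex V), and in N-LKO replicate 2 between -0.18 (complex II) and -0.13 (complex III). The median deviation of the 13 mitochondrially encoded genes was -0.064 in WT replicate 1 and 0.029 in N-LKO replicate 2. The count ratio of mitochondrially to nuclear-encoded members was highest in these same mice, at 22.7 in WT replicate 1 and 23.8 in N-LKO replicate 2, and between 19.5 and 21.3 in the other mice. Sdhd, which anchors complex II in the membrane, shows the pattern, with 114, 155.7, 147 and 130.2 CPM in WT livers and 161, 127, 142 and 131.7 CPM in N-LKO livers. With WT replicate 1 and N-LKO replicate 2 both left out, edgeR called 0 members, and the median log2 fold change of the nuclear-encoded genes was 0.028. Total counts were 18412201 in WT replicate 1 and 14830165 in N-LKO replicate 2, and the part of depth in the pattern was not tested. The low level was not confined to the subunits. Of 77 genes of the mitochondrial ribosome, 49 (63.6%) were lowest in 1 of these 2 mice, with median deviations of -0.041 and -0.13, and of 48 assembly factors of the complexes 22 were (45.8%), with -0.078 and -0.064. Median deviations were -0.076 and -0.14 for TCA cycle genes outside complex II, -0.068 and -0.12 for electron carriers and coenzyme Q, -0.087 and -0.094 for the carriers of ADP, ATP and phosphate and pore genes, and -0.061 and -0.085 for mitochondrial chaperones and proteases. Genes of mitochondrial DNA replication and expression were at 0.0011 and -0.071, and the regulators of mitochondrial biogenesis at 0.081 and 0.13. Of the 10 hepatocyte markers, 8 were lowest in 1 of these 2 mice. The median deviation of hepatocyte markers was -0.081 and -0.11 in these mice, and its part in the pattern was not tested.

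**Figure D4:**
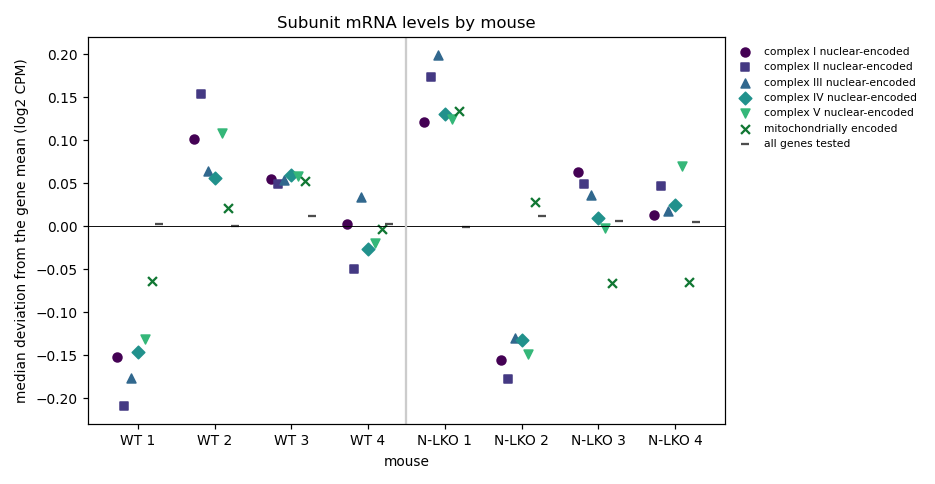
Median deviation of log2 CPM from the gene's mean over 8 mice (vertical axis), for each mouse along the horizontal axis; symbols stand for the nuclear-encoded genes of each complex, for the mitochondrially encoded genes and for all genes tested. In WT replicate 1 and N-LKO replicate 2 the 5 nuclear-encoded groups lie between -0.21 and -0.13, while all genes tested stay near 0.

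The promoters of the nuclear-encoded genes were searched for the motifs of factors known to drive respiratory genes. RefSeq promoter windows (GRCm38.p6, 250 bases before to 50 after the start) were matched for 67 of the 80 genes. Searched on both strands were NRF1 (CGCANGCG), GABPA of the ETS family (CCGGAAG), YY1 (AAGATGGC), the oestrogen-related receptors (TCAAGGTCA), SP1 (GGGCGG) and CREB (TGACGTCA). The NRF1 letters were found in 26 promoters (38.8%), against 9.22% of the promoters of all 27025 genes and 19.1% of those of the 9863 tested genes matched by symbol. A longer form of the NRF1 motif, with a G before and a C after these letters, was searched first and was found in 17 promoters (25.4%, against 5.19% and 11.4%). The GABPA letters were found in 17 (25.4%, against 9.93% and 20.02%) and those of YY1 in 10 (14.9%, against 3.19% and 5.28%). For the oestrogen-related receptors there were 2 promoters (2.99%, against 0.466% and 0.314%) and for CREB 4 (5.97%, against 2.03% and 3.45%). The SP1 letters were found in 27 promoters (40.3%), compared with 38.2% over all genes and 66.6% over tested genes. A match of letters is a description and not a measured binding site.

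The stretches below lie before the RefSeq start site of 3 members. Of the 5 members ranked first in their complexes, these 3 had both the NRF1 and the GABPA letters there. The ranking was by the number of motif kinds before that site and then by mean CPM. By the GENCODE M21 coordinates the stretch of Atp5j lies inside the gene, and that of Cox6a1 lies partly inside. The stretches are shown as examples of where the letters lie. Each of the 3 genes was lowest in WT replicate 1 or N-LKO replicate 2, as most of the family was. The same held for Ndufa10 and Uqcrfs1, the other members ranked first. A link between the letters and this pattern was not tested. Capitals mark the motifs, read on either strand.

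Sdhd (chr9:50603879-50603937, minus strand, NRF1 then GABPA): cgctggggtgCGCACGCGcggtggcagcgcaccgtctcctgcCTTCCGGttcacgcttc
Cox6a1 (chr5:115348959-115349129, minus strand, NRF1, SP1, NRF1, SP1 and GABPA): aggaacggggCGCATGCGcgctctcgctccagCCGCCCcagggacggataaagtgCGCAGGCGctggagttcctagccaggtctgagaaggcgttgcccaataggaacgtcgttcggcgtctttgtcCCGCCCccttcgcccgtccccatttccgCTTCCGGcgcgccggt
Atp5j (chr16:84835021-84835133, minus strand, NRF1, YY1 and GABPA): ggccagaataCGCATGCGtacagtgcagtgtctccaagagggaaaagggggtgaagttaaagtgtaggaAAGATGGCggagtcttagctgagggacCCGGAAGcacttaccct

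Some subunits have several forms, and the liver levels of these differed widely per kilobase of the principal transcript. Values here are mean levels in CPM per kilobase in WT and then N-LKO livers. Cox4i1, the common form of a regulatory complex IV subunit, was at 294 ± 21.9 and 289 ± 31.6 (SD, n = 4). Cox6a1, the liver form of its subunit, was at 199 ± 17.8 and 207 ± 18.6 (SD, n = 4), and Cox8a at 82.8 ± 7.06 and 87.6 ± 5.78 (SD, n = 4). Of the Cox7a forms, Cox7a2 was at 103 ± 6.89 and 105 ± 9.31 (SD, n = 4), and Cox7a2l, which takes part in joining complexes III and IV, at 88.1 ± 5.90 and 94.9 ± 6.81 (SD, n = 4). Cox7a1, the heart and muscle form, was at 0.561 ± 0.404 and 0.702 ± 0.390 (SD, n = 4) and did not pass the filter on low counts. The count table had no row under the symbols Cox4i2, Cox6a2 or Cox8b.

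Ndufa4, now placed in complex IV by many authors though named for complex I, was the highest nuclear-encoded gene of its complex by name at 296 ± 17.9 and 303 ± 24.9 CPM per kilobase (SD, n = 4). Its hypoxia-induced relative Ndufa4l2 was at 0.414 ± 0.181 and 0.240 ± 0.122 (SD, n = 4) and did not pass the filter. Of the genes for the c subunit of the ATP synthase ring, Atp5g3 was at 229 ± 21.6 and 242 ± 22.8, Atp5g1 at 3.68 ± 0.356 and 3.55 ± 0.225, and Atp5g2 at 1.01 ± 0.161 and 1.23 ± 0.493 (SD, n = 4). The principal transcript of Atp5g1 has 4715 bases. With its shortest coding transcript of 596 bases the level over all mice was 28.6 CPM per kilobase, still below the 238 of Atp5g3. Of the stretches of read length in Atp5g2, 35.8% occur in Gm10175, and 6.4% of those in Atp5g1 occur in Gm10039. Counts of these copies were not added, so the levels of Atp5g1 and Atp5g2 are uncertain. The lowest nuclear-encoded genes of complexes II and III per kilobase were Sdhc at 26.2 and Uqcrq at 51.8 over all mice, and the highest Sdhd at 113 and Uqcrh at 200.3. The order within these complexes is uncertain, since Sdhc and Uqcrq come to 279 and 195 CPM per kilobase with their shortest coding transcripts. Atp5b was the highest nuclear-encoded gene of complex V at 354 CPM per kilobase.

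Genes that build and supply the machinery were examined in the same fit. In edgeR 0 of 229 tested genes in 9 lists were called, against 1.04% of all genes tested. At that share few calls would come from lists of this size. Of 48 assembly factors, 19 were above 0 and 29 below, with a median log2 fold change of -0.018. The extremes were Coa6, a copper chaperone of complex IV, at 0.44 (adjusted p = 0.224 from edgeR) and Sco1, another, at -0.27. Of 77 genes of the mitochondrial ribosome, which translates the 13 mitochondrial mRNAs, 24 were above 0 and 53 below, with a median of -0.055 and extremes of 0.19 for Mrpl57 and -0.56 for Mrps6 (adjusted p = 0.208 from edgeR). Of 29 genes of mitochondrial DNA replication and expression, 11 were above 0 and 18 below, with a median of -0.049 and extremes of 0.28 for Fastkd3 and -0.55 for Mgme1.

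Among 14 regulators of mitochondrial biogenesis the median was 0.014, with Ppargc1b at 0.59 (95% interval -0.094 to 1.28) and Ppargc1a at -0.23 (95% interval -1.07 to 0.60). Both encode coactivators of respiratory genes, and neither passed the test. The 13 TCA cycle genes outside complex II had a median of 0.019, and Suclg1, a subunit of succinyl-CoA ligase, was the lowest at -0.16. The 20 genes of electron carriers and coenzyme Q had a median of -0.051, from Coq4 at -0.38 to Pdss1 at 0.28. Pdss1 is part of the trans-prenyltransferase that makes the side chain of coenzyme Q.

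The 8 carriers of ADP, ATP and phosphate and pore genes had a median of 0.11, from Vdac3 at -0.066 to Ucp2 at 0.58. Ucp2 encodes a carrier of the inner membrane. It was at 14.9 ± 2.17 CPM in the WT group and 22.3 ± 4.35 CPM in the N-LKO group (mean ± SD, n = 4 each), with adjusted p = 0.118 from edgeR. The 15 mitochondrial chaperones and proteases had a median of -0.038, from Hspe1 at -0.19 to Clpx at 0.23. Another 5 genes of proteins in or near the complexes, whose symbols the naming rule does not match (Ndufab1, Dmac1, Micos13, Higd1a and Higd2a), had a median of -0.015, from Ndufab1, the acyl carrier protein of complex I, at -0.25 to Higd1a at 0.20.

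In bulk liver, fewer cells of a type and less RNA per cell cannot be told apart. Hepatocyte markers, 10 of 10 of them tested and 0 called in edgeR, summed to 72845 to 102664 CPM in WT and 76753 to 92928 CPM in N-LKO livers, so that the groups overlapped as the members did. The sum of cholangiocyte markers was 36.0 to 62.0 CPM in WT and 73.4 to 155.6 CPM in N-LKO livers, and 2 of 5 tested rose (Epcam and Spp1). That of fibroblast and stellate markers was 194 to 280.0 and 277 to 389 CPM, and 2 of 9 tested rose (Col1a1 and Lum). Macrophage markers (8 tested), endothelial markers (7 tested), lymphocyte markers (2 tested) and erythroid markers (5 tested) had 0 called. Over all genes tested 0.823% were called higher and 0.218% lower. Markers of striated muscle summed to at most 0.634 CPM and had 0 tested, and of brown adipocyte markers 1 was tested and 0 called. The part of these cell types in the values of the members was not tested.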

How the data were processed

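Total liver RNA gave 1 library per mouse. The authors' methods give single ends of 75 bases, and also a number of sequencing cycles smaller than that. Stretches of read length were taken here as 75 bases. The authors aligned the reads and deposited an expected count (an estimated count that need not be whole) per mouse and gene, without scaling for depth. Their methods name TopHat2 and cuffdiff, and the submitters' processing notes name STAR, Partek and mm9. Which program and annotation gave the counts is not given in the sources used here, and the gene coordinates are those of GRCm38, matching GENCODE M21 for all 107 members.

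Counts were rounded to whole numbers, filtered by filterByExpr (minimum count 10, minimum total 15), normalised with TMM and compared by edgeR 4.0.16 (quasi-likelihood test, genotype as sole term) in R 4.3.3. Adjustment (Benjamini-Hochberg) was over all 14214 genes tested, with a call at an adjusted p under 0.05. Intervals come from the standard error (the log2 fold change over the square root of F). Log2 CPM used a prior count of 2. Shared windows of 75 bases and transcript lengths came from GENCODE M21 transcripts. Scripts were tested on simulated data. Other settings used DESeq2 1.42.0, limma 3.58.1 (voom), other scalings and filters, and each mouse left out.

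Members and lists were chosen with earlier results of these data known. Members and pseudogene rows were kept out of the other lists. Genes were named by rule: Nus1, called members, the mitochondrially encoded genes, the nuclear-encoded member with the highest and lowest fold change of each complex at 1 CPM or more, isoforms for their levels, and the extremes of each list, of which 1 is not reported here. Cox6b2, Ndufb4c, Ndufa12-ps and Sdhd's values by mouse were added, and the motif letters chosen, after values were seen. The NRF1 letters reported are the core of a longer form that was searched first.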

Additional observations from a re-analysis of the deposited data

Results flagged for a closer look

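In 4 of 84 groups of 4 values looked at, 1 mouse stood far from the rest of its group by Dixon's 95% criterion for the gap to the nearest mouse, and chance gives about 1 in 20. mt-Cytb was at 14.36 log2 CPM in N-LKO replicate 1, above the other N-LKO mice. Ndufa11 was at 2.75 log2 CPM in N-LKO replicate 2, below the other N-LKO mice. Nus1 was at 6.36 log2 CPM in WT replicate 1, below the other WT mice and far above each N-LKO mouse. The mitochondrial rRNA gene mt-Rnr1, read after removal of rRNA, was at 2951 CPM in WT replicate 3, above the other WT mice.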

How the results depend on the processing

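In all 19 alternative settings 0 members were called. The number of all genes called was 98 with at least 10 counts in every mouse, 371 with DESeq2 and 71 to 173 with each mouse left out, lowest without WT replicate 4. Members with an unadjusted p under 0.05 numbered 1 with library totals alone (Atp5h), 1 with WT replicate 1 and N-LKO replicate 2 both left out (Cox6b2) and 0 to 3 with each mouse left out, the 3 being Atp5h, Cox6b2 and Ndufb10 without WT replicate 1. The nuclear-encoded median log2 fold change was -0.035 to 0.072 with each mouse left out, and the mitochondrially encoded one -0.028 to 0.026. Values near 0 changed sign. With each mouse left out the log2 fold change was -0.060 to 0.021 for mt-Co3, -0.033 to 0.046 for mt-Cytb, -0.012 to 0.15 for mt-Nd1, -0.081 to 0.026 for mt-Nd2, -0.085 to 0.061 for mt-Nd3, -0.060 to 0.0078 for mt-Nd4 and -0.055 to 0.070 for Sdhc. With copies summed it was 0.057 for mt-Co3 and 0.019 for mt-Nd3. With library totals alone it was -0.012 for mt-Cytb and -0.030 for Sdhc, and without the filter -0.0034 for Sdhc. The replicate numbers of the titles did not pair the mice (correlations of residuals -0.085 to 0.063), nor did the library numbers (-0.0094 to 0.17). With a replicate block 131 and 113 genes were called, and 0 members. Depth limits what can be said of members under 1 CPM. The sums of copies and the omission of both mice were chosen after seeing the data.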
